A study of Drosophila melanogaster with 12 samples.

Results

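The odorant receptor genes of Drosophila melanogaster were examined in RNA-seq libraries made from whole heads. They were taken as every row of the raw count table whose symbol is Or followed by a number and a letter, plus the co-receptor gene Orco. This gave 60 genes of 23793 rows, of which 17917 were genes and 5876 transposable element insertions. All 60 matched the annotation by symbol.

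Odorant receptors are the main olfactory receptors of insects. Each functional channel combines the shared co-receptor Orco with a tuning receptor that binds the odour. An olfactory neuron of the adult antenna or maxillary palp usually makes a single tuning receptor, or a small fixed set, and each receptor defines a class of neurons in a given type of sensillum. Some members of the family are known mainly from the larval olfactory organ. The antenna and palp hold only a small part of the tissue of a head, and the odorant binding proteins secreted by antennal support cells mark the antenna without being made by the neurons.

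Each of the 4 groups had 3 libraries, each from 50 heads of male flies aged 3 days. All groups carried the nSyb driver, which is active in neurons throughout the fly, and a hairpin RNA under its control, which acts by RNA interference in the neurons that make it. The hairpins were directed against dYEATS2 (dYEATS2-IR), against dENL/AF9 (dENL/AF9-IR), against Luciferase (NTC IR-2) and against mCherry (NTC IR-1). Luciferase and mCherry are not fly genes, so the last 2 groups served as controls. The titles of the dENL/AF9-IR and NTC IR-2 libraries carry the word young, while the labels give the same age for all 12. No label says that the replicates came from separate cultures, so p-values measure the spread between these samples, which may be technical. A whole head mixes cell types, and fewer cells of a type cannot be told apart from less RNA per cell.

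Library totals ran between 30298251 and 54132559 counts. The group of each library is the one in the header of the raw count table, because the deposited normalized table gives the same 12 libraries other group names. For replicates 1 and 2 of NTC IR-2, the label text points to the count columns of NTC IR-1 replicate 1 and NTC IR-2 replicate 1, and the columns that carry their own library names were used instead. The Or65c and Or67d values below include these libraries. By the names used here, D12 (dYEATS2) had 8.83 ± 0.281 CPM in dYEATS2-IR and 9.05 ± 0.966 CPM in NTC IR-1 (SD, n = 3 each), a log2 fold change of -0.03 (SE 0.138, FDR 0.919). The ear gene (dENL/AF9) had 40.6 ± 2.92 CPM in dENL/AF9-IR and 42.0 ± 7.36 CPM in NTC IR-2 (SD, n = 3 each). The log2 difference for ear was -0.05 (SE 0.118, FDR 1). Neither target was called lower in its own knockdown, so every direction below belongs to libraries as labelled. The ear gene was lowest in NTC IR-1, at 32.0 ± 1.12 CPM, with 37.6 ± 2.2 CPM in dYEATS2-IR (SD, n = 3 each). For ear, NTC IR-2 over NTC IR-1 was called (0.39, SE 0.119, FDR 0.0401) and dYEATS2-IR over NTC IR-1 was not (0.23, FDR 0.281). The normalized table names the NTC IR-1 libraries dENL/AF9-IR and the dYEATS2-IR libraries NTC IR-2. Its dYEATS2-IR and NTC IR-1 are the dENL/AF9-IR and NTC IR-2 used here, with 7.76 and 7.74 CPM of D12. Which names hold was not tested. CPM expresses a count relative to the TMM-scaled total of its library, and FDR is the Benjamini-Hochberg adjusted p of edgeR's quasi-likelihood F test over 12661 rows. The libraries labelled NTC IR-1 also held 587, 798 and 843 CPM of Yp1, a female-type yolk protein gene of the fat body, against at most 0.488 CPM in the other 9 libraries, although all are labelled male.

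Odorant receptor transcripts were rare in these heads. The 60 genes had 13014 counts in all, which is between 0.00216% and 0.00332% of the counts of a library. Of 720 values, 465 (64.6%) were 0. No value was 1, and 6 were 2, 44 were 3 and 16 were 4. Over all genes, values of 3 (5788) were also more frequent than values of 1 (3718), 2 (3276) or 4 (1856). The low counts therefore do not fall off evenly, and how the count table treated the lowest values is not given in the sources used here. A gene at 0 is read only as having up to 3 counts in a library, which corresponds to 0.0566 to 0.103 CPM, and this limit covers counting error only.

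Of the 60 genes, 51 had a count in at least 1 library, 14 of them in 1 library only. The 8 genes above 0 in all 12 libraries were Orco, Or63a, Or43b, Or1a, Or13a, Or71a, Or45b and Or49b. The 9 genes at 0 throughout were Or10a, Or33c, Or45a, Or59a, Or67c, Or83a, Or83c, Or94b and Or98a. A total of 0 was more frequent among the receptors (15.0%) than among all 13765 rows of protein-coding genes (4.4%). Likewise 11 receptors (18.3%) passed the low-count filter and entered the tests, against 76.0% of protein-coding rows. The remaining 49 are described by their counts only.

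**Figure D1:**
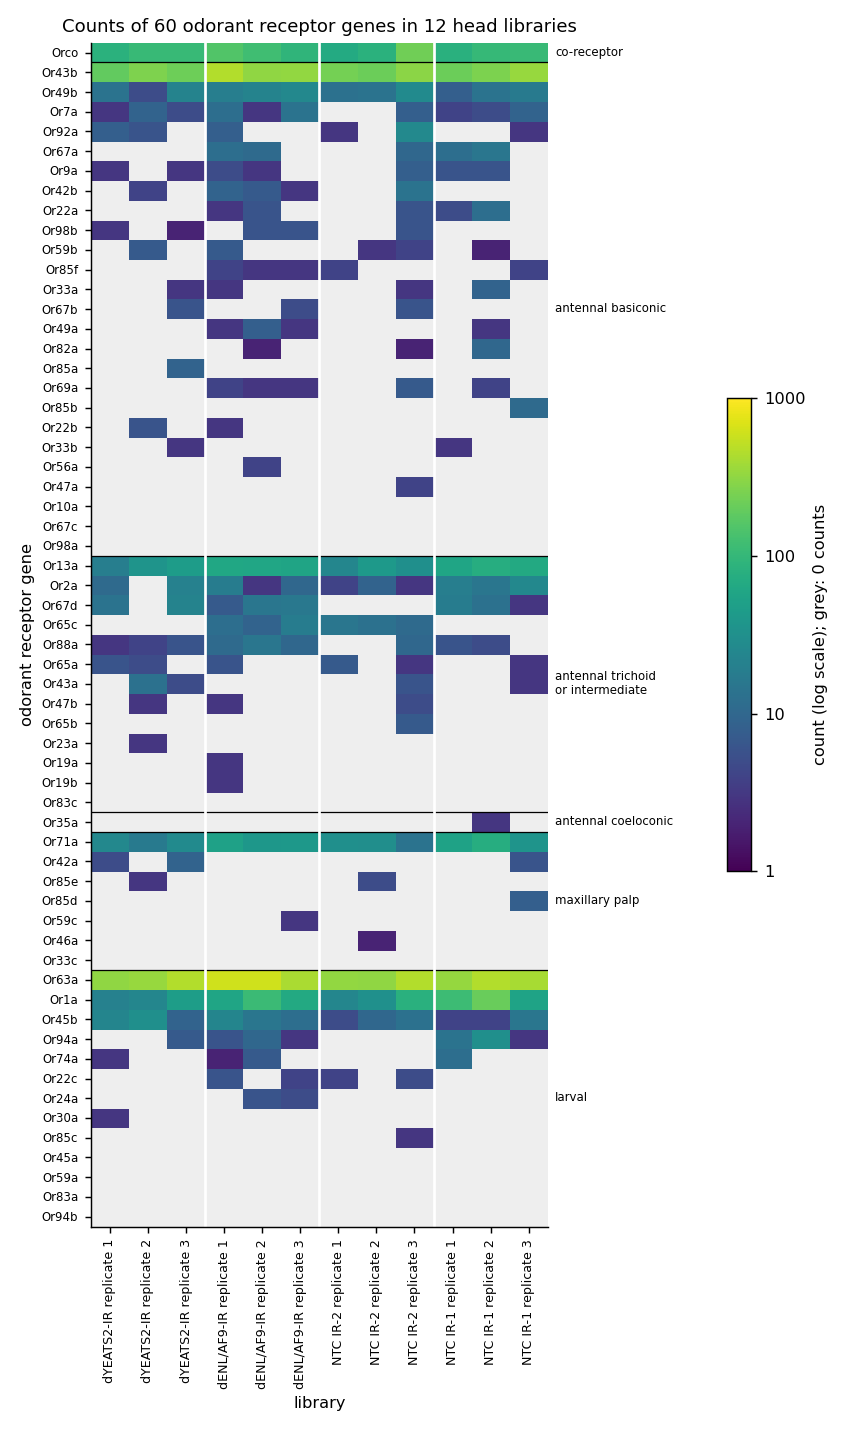
Counts of the 60 odorant receptor genes (rows, by the sensillum or stage each is known from and then by level) in the 12 head libraries (columns), with colour on a log scale and grey for 0. Most cells are grey (465 of 720), and 8 rows are coloured in every library.

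Levels between genes were compared as CPM per kb of annotated exon. Or63a (FBgn0035382, chromosome 3L, 2961534 to 2963788, plus strand, dm6 coordinates from the BDGP6.54 annotation), a receptor known mainly from larvae, had the highest mean over the 12 libraries, 5.91 CPM per kb. Or43b (FBgn0026393, chromosome 2R, 7920835 to 7922604, minus strand), a receptor of an antennal basiconic sensillum, followed with 4.77 CPM per kb. Orco (FBgn0037324, chromosome 3R, 5407183 to 5412406, minus strand), required in every neuron that uses these receptors, had only 1.37 CPM per kb. Or63a, Or43b and Orco together held 74.3% of all receptor counts.

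Per length, Or63a exceeded Orco by 2.24 to 5.68 times and Or43b exceeded Orco by 1.86 to 4.83 times in a library. Both ratios were lowest in NTC IR-2 replicate 3, where Orco itself was highest. A tuning receptor is known from a subset of the neurons that make Orco, so levels above Orco are printed here as measured and their source was not tested. No other annotated gene overlaps Or63a. The nearest gene, CG34025, lies 484 bp away on the opposite strand and averaged 0.0812 CPM.

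For Or43b, 575 of 1412 exon bases (40.7%) also belong to Cul1 on the opposite strand, which averaged 198 CPM. Cul1 encodes a cullin of ubiquitin ligase complexes. The library kit keeps strand, but whether the counting used it is not given in the sources used here, so reads of this stretch cannot be assigned to either gene with certainty. Or45b (FBgn0033422, chromosome 2R, 9559598 to 9561068, plus strand), known from larvae, shares all 1191 exon bases with asRNA:CR45281 on the opposite strand, which averaged 6.48 CPM against 0.344 CPM for Or45b. In the annotation 9 of the 60 receptors (15.0%) share exon bases with another gene, as do 34.3% of 13986 protein-coding genes.

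Of the other 7 with shared exon bases, Or88a shares 1036 of 1206 (85.9%) with asRNA:CR44237 on the opposite strand, with 70 counts for Or88a beside 9. Or46a, Or67b, Or47a and Or23a also share exon bases with another gene and had 2, 17, 4 and 3 counts over all libraries. All 1362 exon bases of Or83a lie within exons of CG1172 on the opposite strand, and Or83a had 0 counts beside 14394 for CG1172. All 2819 exon bases of Or10a are shared with the gustatory receptor gene Gr10a on the same strand, and Or10a had 0 counts beside 491 for Gr10a. Or19a and Or19b, near-identical copies on the X chromosome that were picked out after their values were seen, each had 3 counts, both in dENL/AF9-IR replicate 1. Reads that fit both copies could have been counted for either.

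Below Orco came Or1a with 1.36 CPM per kb, Or13a with 0.912, Or71a with 0.619, Or45b with 0.289, Or49b with 0.231, Or2a with 0.221, Or67d with 0.187 and Or65c with 0.131 CPM per kb. Neighbours in this order overlapped in their library values, Or63a and Or43b included, except Or43b and Orco, which were apart in every library. Or65c was the lowest receptor that passed the filter. Just outside it were Or94a, known from larvae, with 74 counts over all libraries, then Or7a, an antennal basiconic receptor, with 72, and Or88a, a trichoid pheromone receptor, with 70.

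**Figure D2:**
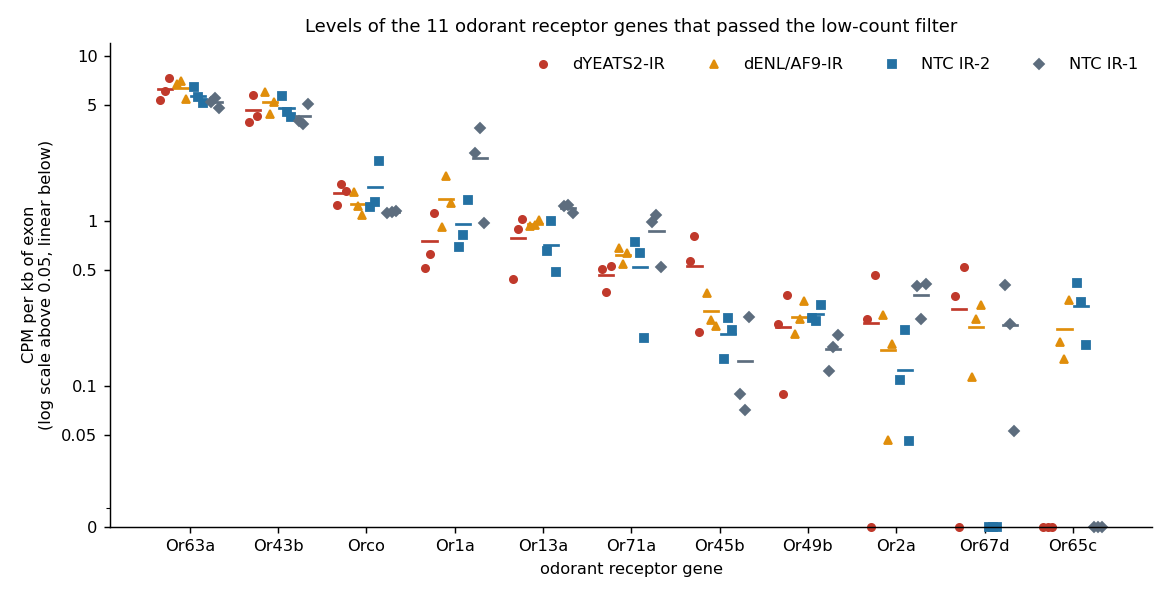
Level of the 11 odorant receptor genes that passed the low-count filter, in CPM per kb of exon (log scale above 0.05, linear below), with a point per library and a bar at each group mean. Or63a and Or43b lie above Orco in every library, and Or65c lies at 0 in all dYEATS2-IR and NTC IR-1 libraries.

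By the class of neuron they are known from, the 25 antennal basiconic receptors had 2 tested genes, the 13 trichoid or intermediate receptors 4, the 7 maxillary palp receptors 1, the 13 larval receptors 3 and the single coeloconic receptor, Or35a, none. Receptors known from larvae summed to 12.5 ± 1.83 CPM in dYEATS2-IR, 13.3 ± 1.79 CPM in dENL/AF9-IR, 11.3 ± 0.751 CPM in NTC IR-2 and 12.4 ± 2.42 CPM in NTC IR-1 (SD, n = 3 each), with most of it from Or63a. Trichoid or intermediate receptors summed to 2.11 ± 0.636 CPM in dYEATS2-IR, 2.29 ± 0.25 CPM in dENL/AF9-IR, 1.71 ± 0.21 CPM in NTC IR-2 and 2.35 ± 0.306 CPM in NTC IR-1. Maxillary palp receptors summed to 0.836 ± 0.199 CPM in dYEATS2-IR, 0.911 ± 0.116 CPM in dENL/AF9-IR, 0.823 ± 0.474 CPM in NTC IR-2 and 1.33 ± 0.265 CPM in NTC IR-1. Most of it came from Or71a, which responds to phenolic odours. Or71a overlaps Plp on the same strand outside its exons, and averaged 0.89 CPM beside 114 CPM for Plp. The part of Plp RNA in the Or71a counts was not tested.

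The summed level of all 60 genes was 22.1, 27.4 and 28.8 CPM in dYEATS2-IR, 29.8, 28.0 and 25.9 CPM in dENL/AF9-IR, 26.1, 23.5 and 25.7 CPM in NTC IR-2, and 25.9, 27.9 and 23.3 CPM in NTC IR-1. The libraries of all groups overlapped. The log2 ratio of the group means was 0.02 for dYEATS2-IR over NTC IR-1, 0.15 for dENL/AF9-IR over NTC IR-2 and -0.03 for NTC IR-2 over NTC IR-1. Or63a and Or43b supplied most of the sum. Without these 2 genes the means were 8.64 CPM in dYEATS2-IR and 10.6 CPM in NTC IR-1, and 9.51 CPM in dENL/AF9-IR and 8.38 CPM in NTC IR-2.

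More receptors were detected in some libraries than in others. The number above 0 was 19, 19 and 21 in dYEATS2-IR, 31, 26 and 23 in dENL/AF9-IR, 14, 13 and 30 in NTC IR-2, with 18, 22 and 19 in NTC IR-1. The 2 libraries with 30 and 31 detected receptors also had the most antennal marker RNA, taken as the sum of 8 genes, and were among the deepest. The 8 leave out Obp19d. Over all 12 antennal support genes read below, dENL/AF9-IR replicate 3 was highest, at 315 CPM with 23 detected receptors. The sum of 8 antennal markers (Obp28a, lush, Obp83a, Obp83b, Obp84a, Snmp1, Os-C and a10) was 37.8, 57.7 and 18.8 CPM in dYEATS2-IR, 85.8, 27.9 and 36.6 CPM in dENL/AF9-IR, 9.61, 32.9 and 136 CPM in NTC IR-2, and 20.9, 19.4 and 19.4 CPM in NTC IR-1. The spread within NTC IR-2 was wider than the difference between any group means. NTC IR-2 replicate 1 had Obp83a, Obp84a and a10 at 0, while its Orco, at 2.33 CPM, was within the range of the other libraries.

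In NTC IR-2 replicate 3 the antennal basiconic receptors above 0 numbered 15 of 25, against 4 and 3 in the other 2 libraries of that group. Their summed level was 8.60 CPM there, with 8.78 and 6.96 CPM in the other 2, so more genes were above 0 while the sum lay between those of the others. Or43b, the main part of the sum, was lowest there, at 6.01 CPM beside 8.10 and 6.44 CPM. Or92a and Or42b, receptors for food odours picked out after their values were seen, had 26 and 14 counts there, with 3 and 0 for Or92a and 0 in both for Or42b in the other 2. The part of antennal RNA content or depth in these counts was not tested.

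**Figure D3:**
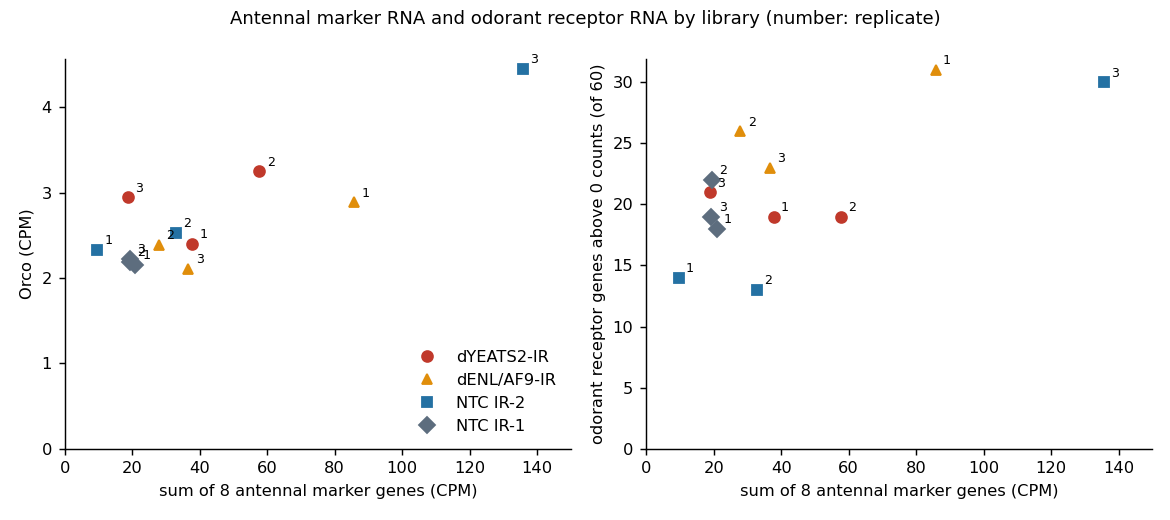
Orco in CPM (left) and the number of the 60 odorant receptor genes above 0 counts (right) against the summed CPM of 8 antennal marker genes, with a point per library, shapes for groups and replicate numbers beside the points. NTC IR-2 replicate 3 lies farthest right at 136 CPM, with the highest Orco at 4.45 CPM and 30 receptors.

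Whether the dYEATS2 hairpin was accompanied by a change in receptor RNA was asked by setting the dYEATS2-IR libraries against those of NTC IR-1. None of the 11 tested receptors was called at an FDR below 0.05, while 4.77% of all rows tested were called. An unadjusted p below 0.05 was reached by 2 receptors in edgeR's quasi-likelihood test, Or1a and Or45b, and by 2724 of all 12661 rows tested. DESeq2's Wald test called 1, Or1a, while it called 9.22% of all rows. The share of 1 in 11 receptors is near it. The median log2 fold change of the 11 was 0.11, against -0.02 over all rows tested. Or65c, which was at 0 counts in both groups and has no estimate, entered this median as 0. The estimates of Or43b, Or45b, Or49b, Or63a, Or67d and Orco were positive and those of Or71a, Or1a, Or2a and Or13a negative.

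Orco had 82, 105 and 105 counts in dYEATS2-IR and 81, 103 and 107 in NTC IR-1, which is 2.40, 3.25 and 2.94 CPM against 2.16, 2.19 and 2.22 CPM. All 3 dYEATS2-IR libraries lay above all 3 NTC IR-1 libraries, but the difference, a log2 fold change of 0.39 (SE 0.26), was not called in edgeR's quasi-likelihood test (FDR 0.425). Against the other control, NTC IR-2, it was -0.12. Or63a had 9.29, 10.6 and 12.6 CPM in dYEATS2-IR and 9.03, 9.53 and 8.32 CPM in NTC IR-1, with overlap between the groups (log2 fold change 0.27, SE 0.151, FDR 0.323).

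Or1a, known from larvae (FBgn0029521, chromosome X, 315123 to 316566, plus strand), showed the largest negative estimate. It had 21, 24 and 47 counts in dYEATS2-IR and 115, 204 and 55 in NTC IR-1, or 0.615, 0.743 and 1.32 CPM against 3.06, 4.34 and 1.14 CPM. NTC IR-1 replicate 3 lay within the range of dYEATS2-IR and the other 2 NTC IR-1 libraries above it. The estimated log2 fold change, -1.67 (SE 0.5), was not called in edgeR's quasi-likelihood test (FDR 0.0824). It was called by DESeq2's Wald test (FDR 0.0201) and without NTC IR-1 replicate 3 (-2.05, FDR 0.0176). Against NTC IR-2, which had 24, 32 and 80 counts, the estimate was -0.35 (FDR 0.712).

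Or1a lies in an intron of CG3777 on the same strand with no shared exon bases. CG3777 had 17.3, 12.3 and 9.34 CPM in dYEATS2-IR and 10.6, 12.8 and 14.3 CPM in NTC IR-1, a log2 fold change of 0.04 (FDR 0.97).

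Or45b had 23, 31 and 9 counts in dYEATS2-IR and 4, 4 and 15 in NTC IR-1. Replicate 3 of each group stood apart from the other 2, in opposite directions, so that the groups overlapped. The log2 fold change was 1.87 (SE 0.614, FDR 0.109), and without NTC IR-1 replicate 3 it was 2.68 (FDR 0.038), in a fit that called 7.96% of all rows. Its antisense partner asRNA:CR45281 had a log2 fold change of -0.33 (FDR 0.355).

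Or13a, a receptor of an intermediate sensillum, had 0.557, 1.11 and 1.29 CPM in dYEATS2-IR and 1.54, 1.55 and 1.39 CPM in NTC IR-1. The groups did not overlap, but the log2 fold change of -0.60 (SE 0.343) was not called (FDR 0.34). The estimates of Or43b, Or71a, Or49b, Or2a and Or67d lay between -0.87 and 0.45, with FDR of 0.297 or more. Cul1, which overlaps Or43b, was called higher (0.43, SE 0.0855, FDR 0.0193) while Or43b had an estimate of 0.11 (SE 0.194, FDR 0.792). Or65c was at 0 counts in all 6 libraries of this comparison, so no fold is given.

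For the dENL/AF9 hairpin, the dENL/AF9-IR libraries were set against those of NTC IR-2. None of the 11 tested receptors was called, and 0% of all rows tested were called either, with 661 of the rows at an unadjusted p below 0.05 and 30 (0.237%) called by DESeq2's Wald test. An unadjusted p below 0.05 was reached by 1 receptor, Or67d, in edgeR's quasi-likelihood test, and DESeq2's Wald test called none. The median log2 fold change of the 11 was 0.27, with 8 positive, against -0.001 over all rows tested.

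Orco had 2.89, 2.39 and 2.11 CPM in dENL/AF9-IR. In NTC IR-2 it had 2.33, 2.53 and 4.45 CPM, so the groups overlapped. The log2 fold change was -0.34 (SE 0.258, FDR 1). Without NTC IR-2 replicate 3, the library with the most antennal marker RNA, it was 0.02. Or63a had 11.6, 12.01 and 9.35 CPM in dENL/AF9-IR and 11.1, 9.67 and 8.82 CPM in NTC IR-2, with a log2 difference of 0.16 (SE 0.15, FDR 1).

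Or67d is the receptor for the male pheromone cis-vaccenyl acetate in a trichoid sensillum (FBgn0036080, chromosome 3L, 10273204 to 10274624, plus strand). It had 7, 15 and 16 counts in dENL/AF9-IR and 0 in all 3 NTC IR-2 libraries. Its mean was at least 3.13-fold higher in dENL/AF9-IR, taking 3 counts in each NTC IR-2 library as the floor, with an FDR of 0.676. The other 8 estimates ranged between -0.45 and 0.50.

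The 2 control groups, which differ in hairpin but have no fly target, were compared as NTC IR-2 against NTC IR-1. Of the 11 tested receptors 2 were called, Or65c higher and Or67d lower in NTC IR-2, which is 1 in each direction. Over all rows tested 19.5% were called, 10.3% higher and 9.16% lower, so the receptors were called at a share near that of all rows. DESeq2's Wald test called 3, with Or1a added, and 24.6% of all rows. The share of rows called between the controls was larger than in either knockdown comparison.

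Or65c, called higher, belongs to a tandem cluster of 3 genes, Or65a, Or65b and Or65c, which are known to be made together in a trichoid pheromone-sensing neuron (Or65c FBgn0041623, chromosome 3L, 6327608 to 6329069, plus strand). It had 15, 13 and 11 counts in NTC IR-2 and 0 in all 3 NTC IR-1 libraries. The mean was at least 5.48-fold higher in NTC IR-2 with 3 counts in each NTC IR-1 library as the floor (FDR 0.00763). Or65c passed the low-count filter only through libraries where it was above 0, so the values compared here also decided that it was tested. Its call is therefore given as a description. Without the filter its FDR was 0.0112, and with a mean count of at least 10 or with the 6 libraries alone it was not tested. The same division ran through the knockdown libraries, with 12, 9 and 18 counts in dENL/AF9-IR and 0 in all 3 dYEATS2-IR libraries.

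Or65c was thus above 0 in exactly the 6 libraries whose titles carry the word young and at 0 in the other 6. Among all 12661 rows tested, it was the only row with this pattern, and 2 rows had the reverse. This count was made after the values were seen and carries no test. Its cluster neighbours did not show the pattern. Or65a had 6, 5 and 0 counts in dYEATS2-IR, 6, 0 and 0 in dENL/AF9-IR, 7, 0 and 3 in NTC IR-2, with 0, 0 and 3 in NTC IR-1. Or65b had 7 counts in NTC IR-2 replicate 3 and 0 elsewhere. The nearest gene, CG13300, lies 254 bp from Or65c on the opposite strand and averaged 18.6 CPM, beside 0.162 CPM for Or65c.

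Set against the control of the other pair, Or65c was called at least 4.26-fold lower in dYEATS2-IR than in NTC IR-2 (FDR 0.0154) and at least 3.95-fold higher in dENL/AF9-IR than in NTC IR-1 (FDR 0.0126). It was the only receptor called in each of these, where 9.17% (3.85% higher, 5.32% lower) and 15.6% (8.67% higher, 6.92% lower) of all rows were called. The same selection by the filter holds here, so both calls are descriptions. These comparisons share their libraries with the ones above and add no further evidence.

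Or67d was called lower in NTC IR-2, with 0 counts in all 3 libraries against 18, 13 and 3 in NTC IR-1. The mean was at least 3.22-fold lower (FDR 0.0496). The call was lost when any library other than NTC IR-1 replicate 3 was left out, with FDR between 0.0333 and 0.133 over the 6 fits. It was also lost without the low-count filter (FDR 0.0588) and without both libraries richest in antennal marker RNA (FDR 0.135). Or67d was not tested with a mean count of at least 10 or with the 6 libraries alone. With the normalized table's names this contrast sets the libraries called dYEATS2-IR here against those of NTC IR-2, with the opposite sign (FDR 0.0616). Like Or65c, it passed the filter only through groups where it was above 0. In dYEATS2-IR it had 14, 0 and 22 counts. In all, 61 gene rows tested were at 0 in the 3 NTC IR-2 libraries and above 0 in the 3 NTC IR-1 libraries.

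Orco was higher in each NTC IR-2 library (2.33, 2.53 and 4.45 CPM) than in any NTC IR-1 library (2.16, 2.19 and 2.22 CPM), but the log2 fold change of 0.51 (SE 0.26) was not called (FDR 0.188). It was 0.15 without NTC IR-2 replicate 3. Or1a had 0.823, 0.976 and 1.58 CPM in NTC IR-2 against 3.06, 4.34 and 1.14 CPM in NTC IR-1 (log2 fold change -1.32, SE 0.49, FDR 0.0802). Both this estimate and the one of -1.67 in dYEATS2-IR rest on the same NTC IR-1 libraries. Or13a had a log2 fold change of -0.75 (SE 0.344, FDR 0.146). Or94a, just under the filter, had 0 counts in all NTC IR-2 libraries and 14, 31 and 3 in NTC IR-1, given without a test.

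**Figure D4:**
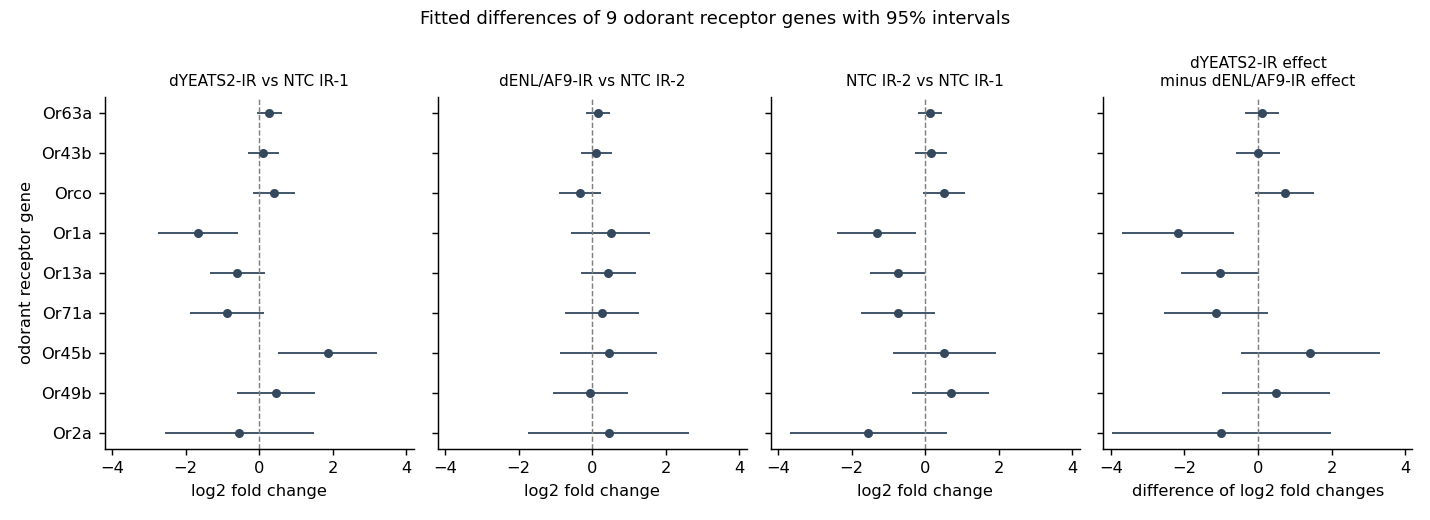
Fitted log2 fold changes (points) with 95% intervals (bars) of the 9 tested odorant receptor genes that are above 0 in all groups, in 3 comparisons and for the difference between both knockdown effects. The intervals include 0 except those of Or1a, below 0 in every panel but dENL/AF9-IR against NTC IR-2, and of Or45b, above 0 in dYEATS2-IR against NTC IR-1.

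The difference between both knockdown effects was tested in the same fit. None of the 11 receptors was called, against 0.932% of all rows tested. An unadjusted p below 0.05 in edgeR's test was reached by Or1a and Or67d, and by 1801 of all 12661 rows tested. DESeq2's Wald test called none, with 3.15% of all rows called. Or1a had a difference of -2.17 on the log2 scale (SE 0.698, FDR 0.199) and Orco one of 0.73 (SE 0.367, FDR 0.405). Or67d had an FDR of 0.288.

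Other genes of olfaction were read from lists chosen with earlier results of these data known. Over all 12661 rows, 2724 in the dYEATS2-IR comparison and 661 in the dENL/AF9-IR comparison had an unadjusted p below 0.05 in edgeR's test. Of 12 antennal support genes, mostly odorant binding proteins, 0 were called in dYEATS2-IR against NTC IR-1 (median log2 fold change 1.66, 11 positive, 1 at an unadjusted p below 0.05 in edgeR's test) and 0 in the dENL/AF9-IR comparison (median -0.26, 1 positive, 0 at an unadjusted p below 0.05). Between the controls 1 was called, Os-C, at 3.31 (SE 1.06, FDR 0.0492), and the median was 2.04 with all 12 positive. Over all rows tested 10.3% were called higher there, so 1 of 12 is near that share. Each of the 8 genes of the marker sum above was highest in NTC IR-2 replicate 3, but their spread differed. Within NTC IR-2, Snmp1 had 5.76, 7.63 and 13.88 CPM, and Obp83a had 0, 3.935 and 25.55 CPM. Of the others, Obp69a, Obp19a and Obp59a were also highest in NTC IR-2 replicate 3. Obp19d went the other way in that group, with 235, 199 and 160 CPM. All 12 genes therefore summed to 245, 236 and 311 CPM in NTC IR-2, most of it from Obp19d. In dENL/AF9-IR the 12 summed to 250, 182 and 315 CPM, highest in replicate 3, while the 8 were highest in replicate 1.

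Of 21 other olfactory receptor genes, mostly ionotropic receptors, which form a second family of odour-gated channels, 15 were tested. None was called in either knockdown comparison, with 4 and 3 at an unadjusted p below 0.05 in edgeR's test, beside 2724 and 661 of all 12661 rows. Between the controls Ir21a, a receptor known for cool sensing, was called lower in NTC IR-2 (-0.86, SE 0.27, FDR 0.0449). Over all rows tested 9.16% were called lower and 10.3% higher there, so 1 of 15 is near the share. Of 11 transcription factors known to act in olfactory neurons, 10 were tested, and none was called in either knockdown comparison, with 1 and 0 at an unadjusted p below 0.05. Fer1 (0.50, FDR 0.0128), onecut (0.66, FDR 0.0108) and Eip93F (0.90, FDR 0.0155) were called higher in NTC IR-2 than in NTC IR-1. They are also made outside the antenna, at levels far above the receptors, with onecut averaging 316 CPM.

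Markers of other cell types were read between the same groups as the 2 called receptors. Over all rows tested 10.3% were called higher and 9.16% lower there. Of 12 neuron genes, 9 were called higher in NTC IR-2 than in NTC IR-1, with summed levels of 11500 to 14300 CPM against 6225 to 8453 CPM, and none at 0. Of 8 fat body genes, 7 were called lower, with 328 to 446 CPM in NTC IR-2 against 2548 to 3238 CPM in NTC IR-1, and Yp1 at 0 in 1 NTC IR-2 library. Of 10 male reproductive tract genes, 6 were called lower, with 0 to 1.75 CPM against 6.72 to 15.4 CPM, and 3 to 10 of them at 0 in an NTC IR-2 library. Of 7 glial genes, 3 were called lower in NTC IR-2, among them alrm, an astrocyte gene (-2.76, FDR 0.000903), and Gat, a GABA transporter (-1.06, FDR 0.00287), while the list summed to 1028 to 1388 CPM in NTC IR-2 against 923 to 1262 CPM in NTC IR-1. Of 13 photoreceptor genes 2 were called higher, with 35910 to 48760 CPM against 28760 to 43420 CPM. Of 7 muscle genes 1 was called higher, with 5019 to 6053 CPM against 4599 to 6965 CPM. Both counts are near the share over all rows. No glial, photoreceptor or muscle gene of the lists was at 0 in any library. Their part in the levels of Or65c and Or67d was not tested.

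In dYEATS2-IR against NTC IR-1, 6 of 13 photoreceptor genes and 1 of 12 neuron genes were called higher, and 3 of 8 fat body genes, 1 of 7 glial genes and 1 of 10 male reproductive tract genes were called lower. Over all rows tested 2.42% were called higher and 2.35% lower there. No gene of these lists was called in the dENL/AF9-IR comparison, where no row was called. The part of these differences in the receptor estimates was not tested.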

How the data were processed

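RNA-seq of fly heads was deposited by the authors as a table of raw counts per gene and a table of normalized counts, a signal on the count scale equal to the deposited raw counts times a constant per column. Per the submitters' processing notes, FastQC 0.12.0, Trim Galore 0.6.5, HISAT2, SAMtools, UMI-tools, Picard and DESeq2 were used with builds BDGP6 and dm6. The counting program, its use of strand and its handling of multiply matched reads are not given in the sources used here.

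The normalized table was used only to compare names: all 12 of its columns match, up to a constant, a raw column named for another group (100% of rows, relative tolerance 0.0001). Raw-table names were kept. For replicates 1 and 2 of NTC IR-2 the label text points to other libraries' columns, so columns were matched by library name. No column was left unassigned, and no 2 libraries were identical (Pearson r of log levels 0.928 to 0.976).

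Counts were fitted in R 4.3.3 with edgeR 4.0.16 (TMM factors 0.859 to 1.16, filterByExpr with the 4 groups, 12661 rows, all 12 libraries, 8 residual degrees of freedom). A row was called at an FDR below 0.05. Standard errors were obtained from the fold change and the square root of F. The code was tested on simulated data. Coordinates, exon lengths and overlaps come from BDGP6.54 (Ensembl release 115).

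The members, gene lists and tests were chosen with earlier results of these data known. Receptor classes follow general knowledge. The named receptors were Orco, the 10 highest per kb, those called in any comparison and those at the edge of the filter. A further part of the rule, copies with over 90% protein identity, could not be applied because no protein sequences were at hand. Alternatives were DESeq2 1.42.0 (size factors, Wald test), other filters, the replicate block, 6 libraries only, the other control, other names and each library left out.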

Additional observations from a re-analysis of the deposited data

How the results depend on the processing

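Of the receptor counts and summed levels under the alternatives, 96 values stayed near the main one and 25 moved. For dYEATS2-IR against NTC IR-1, where 0 receptors were called, the count was 0 to 2 when a library was left out (2 of 14 tested, Or1a and Or45b, without NTC IR-1 replicate 3, where 7.96% of all rows were called), 1 (Or1a) with DESeq2's Wald test (9.22% of rows) and 1 (Or65c) against the other control (9.17%). For the dENL/AF9-IR comparison it was 1 (Or65c) against the other control (15.6%). For NTC IR-2 against NTC IR-1, where 2 were called, it was 1 to 4 when a library was left out (4 of 14, Or1a, Or65c, Or67d and Or94a, without NTC IR-1 replicate 3, with 23.4% of rows called, and 1, Or65c, without any other, with 7.33% to 22.1%). It was 1 without a filter (of 51 tested, 9.04% of rows), 1 with the replicate block (15.3%), 1 under the names of the normalized table (9.17%), 1 without both libraries richest in antennal marker RNA (10.1%, an alternative added after seeing the data), 0 with a mean count of at least 10, where neither receptor was tested, and 0 with the 6 libraries alone, where only 8 receptors were tested. The count for the difference of effects was 0 under every alternative run.

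The replicate numbers do not pair the samples: correlations of deviations between libraries of the same number were -0.192 to 0.01. With the replicate block 334 rows were called in dYEATS2-IR against NTC IR-1, 1942 between the controls and 73 for the difference of effects, against 604, 2467 and 118 without it, and among the receptors the call of Or67d was lost (FDR 0.0879).

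The summed CPM without Or63a and Or43b was 8.64 in dYEATS2-IR, 9.51 in dENL/AF9-IR, 8.38 in NTC IR-2 and 10.6 in NTC IR-1. Without Orco it was 25.4 in dENL/AF9-IR and 22.0 in NTC IR-2. Without TMM factors it was 23.2 in NTC IR-2, and the log2 ratio of NTC IR-2 to NTC IR-1 was -0.193, while the median over the 9 genes above 0 in both groups was 0.136.

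With the normalized table's names the first comparison becomes the second one given here, and the second becomes the first with its sign turned. Only some receptors were followed singly in each comparison. Of these, Orco (-0.34), Or1a (0.50) and Or13a (0.44) changed sign in dYEATS2-IR against NTC IR-1. In the dENL/AF9-IR comparison Or63a (-0.27) and Or67d (-0.35) did. Between the controls Or65c (-6.95), Or67d (6.84), Orco (-0.12) and Or13a (0.15) did, and Or67d (6.81) for the difference of effects. Signs also changed outside these. They include Or71a (0.27), Or49b (-0.05) and Or2a (0.45) in dYEATS2-IR against NTC IR-1. Further cases were Or43b and Or45b in the dENL/AF9-IR comparison, and Or43b (-0.05), Or49b (-0.25) and Or2a (0.997) between the controls. The values of Or65c and Or67d depend on the prior count and are no bounds. Against the other control, Orco (-0.12), Or13a (0.15), Or43b (-0.05), Or49b (-0.25) and Or2a (0.997) changed sign in dYEATS2-IR. In dENL/AF9-IR the sign changed for Orco (0.17), Or67d (-0.0298), Or1a (-0.82), Or13a (-0.31), Or71a (-0.47), Or2a (-1.09), Or49b (0.64) and Or65c. Only Or43b, Or45b and Or63a kept their sign there. Without NTC IR-2 replicate 3, Orco in dENL/AF9-IR was 0.0199, in a range of -0.51 to 0.0199 over libraries left out. The cause of these changes was not tested. The low-count filter passed 11 of 60 receptors, and 12 to 15 when a library was left out, while 51 were tested without it.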
